A study of Homo sapiens with 12 samples.

Results

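The ATP-binding cassette (ABC) transporter family was described in H446 cells, a human small cell lung cancer line, across 6 mRNA libraries, with a list of miRNAs read in 6 further libraries. The family members were taken by symbol, as every entry of the gene count table named ABC, then a subfamily letter from A to G, then a number, which gave 45 genes of 34886 symbols. CFTR, TAP1 and TAP2, which are ABC proteins without such a symbol, were not members and are given with the partner genes. Treated cells received CAPE, the phenethyl ester of caffeic acid and a constituent of the bee product propolis, at 40 µM for 8 h, and 3 mRNA and 3 miRNA libraries were made. Control cells received an equal volume of the solvent dimethyl sulfoxide (DMSO), again with 3 libraries of each kind. All groups were the same line grown in medium with serum, with 1 dose and 1 time, and the labels do not tell whether a group's 3 libraries were cultured apart, so the p-values reflect the spread among these libraries, which may be technical.

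ABC proteins bind and hydrolyse ATP at paired nucleotide-binding domains, and most use that energy to move lipids, metal complexes, peptides, conjugates or drugs across a membrane. P-glycoprotein (ABCB1), the multidrug resistance protein ABCC1 and the breast cancer resistance protein ABCG2 are the efflux pumps best known for removing anticancer drugs from tumour cells. The subfamilies E and F have ATP-binding domains but no membrane-spanning part and act on ribosomes and translation, so the family holds more than pumps.

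Total counts ran between 17569997 and 20917508 per mRNA library and between 4637576 and 8933025 per miRNA library, and values in CPM are counts scaled to library sizes adjusted by the trimmed mean of M values (TMM). The library DMSO 3 stood apart from the other 5. Its TMM factor was 0.699, against 1.07 to 1.09 in the others. Of the 13595 genes tested, DMSO 3 was 2-fold or more higher than DMSO 1 and DMSO 2 together for 2836 and lower for 2858. Among the 31 family members tested, DMSO 3 was lower by 2-fold or more for 8 and higher by as much for 3. It lay below the DMSO 1 and DMSO 2 mean for 22 of the 31 members, and for 6779 of the 13595 genes. The median deviation of the members in that library was -0.21 on the log2 CPM scale, against 0.0034 for all genes tested. Values of the family members are given with 6 libraries and without DMSO 3. The part that this library's difference has in the 6-library results was not tested beyond leaving it out. Of the neuroendocrine markers of small cell lung cancer, NEUROD1, INSM1, CHGA and NCAM1 had at most 2 counts in any library and SYP had 9 to 16, whereas ENO2 had 18.1 to 144 TPM, the deposited level scaled by transcript length, and UCHL1 15.7 to 24.3 TPM. YAP1, a marker of tumours without neuroendocrine features, had 14.3 to 73.6 TPM. Of the markers of other cells, PTPRC had 3 to 28 counts, PECAM1 36 to 61 and COL1A1 260 to 509. Fewer cells of a type and less RNA per cell cannot be told apart in these bulk libraries.

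The family ranged from genes with over 100 TPM to genes without a count. In TPM, which divides counts by transcript length and so allows levels of different genes to be set beside each other, ABCC3 was the highest member in every library but DMSO 3, with 179, 185 and 212 TPM in CAPE libraries 1 to 3, against 151, 132 and 35.1 TPM in DMSO libraries 1 to 3. In DMSO 3, ABCF2 (79.7 TPM), ABCF1 (72.9 TPM) and ABCF3 (52.0 TPM) were above it. ABCC3 exports glucuronide conjugates and bile salts. The next members in DMSO libraries 1 and 2 were ABCE1, with a mean level of 73.9 ± 3.38 TPM with CAPE (SD, n = 3) and 98.5 and 100.5 TPM in DMSO 1 and DMSO 2, then ABCF2 and ABCF1. Over DMSO 1 and DMSO 2 the range of ABCF2 took in those of ABCE1 and ABCF1, so the place of ABCF2 was not separated from the spread. ABCF1, at 89.1 and 87.5 TPM in DMSO 1 and DMSO 2, lay below ABCE1 in each of them. ABCA2 and ABCC1 followed, at means of 69.7 and 64.7 TPM in DMSO libraries 1 and 2, and their levels overlapped too.

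The classical efflux pumps differed widely in level. ABCC1 had 66.7, 64.5 and 66.6 TPM in the CAPE libraries, against 65.0, 64.4 and 23.2 TPM in the DMSO libraries. ABCB1 had 5.89, 5.38 and 7.70 TPM with CAPE, against 8.04, 5.36 and 1.62 TPM with DMSO. ABCG2 had 0.549, 0.516 and 0.379 TPM with CAPE and 0.442, 0.589 and 0.290 TPM with DMSO, so that its transcripts were rare in every library. Summed over the 45 members, the CAPE libraries held 944, 1007 and 997 TPM and the DMSO libraries 953, 900 and 447 TPM, with DMSO 3 the lowest. The summed counts of the members, not scaled for depth, were 33310, 32372 and 27837 in DMSO libraries 1 to 3. Total counts of these libraries were 17770295, 17913069 and 20917508, and their TMM factors 1.07, 1.07 and 0.699. Unscaled sums therefore do not place DMSO 3 against the others. The median deviation of the tested members in DMSO 3 was -0.21 in log2 CPM. A sum is led by the highest members and a median is not, so the size of the difference depends on the measure.

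**Figure D1:**
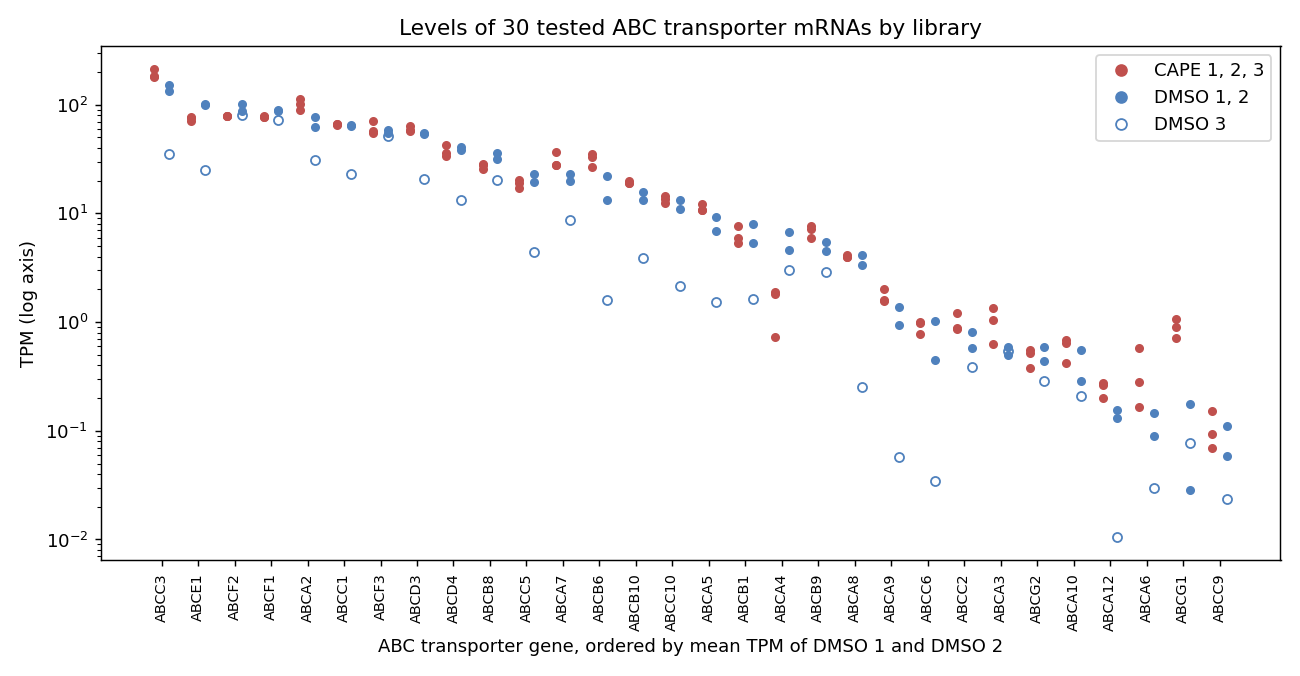
Level of 30 of the 32 tested ABC family members in each mRNA library, in TPM on a log axis, with 1 point per library, CAPE in red left of DMSO in blue and DMSO 3 as an open circle. ABCC3 led the family at 179 to 212 TPM with CAPE, and DMSO 3 lay below the other DMSO libraries for many members.

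The main comparison asked which members differed between CAPE and DMSO cells. With all 6 libraries, edgeR's quasi-likelihood test with Benjamini-Hochberg adjustment over all genes called 0 of the 31 members tested at an adjusted p under 0.05, where 1.95% of the 13595 genes tested were called. At an unadjusted p under 0.05 there were 5 members, ABCA2, ABCA7, ABCC3, ABCC6 and ABCG1. That is 16.1% of those tested, the same share as the 16.1% over all genes. DESeq2's Wald test on the 6 libraries called 1 of 38 members, ABCG1, where it called 5.43% of all genes tested.

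Without DMSO 3, the same edgeR test called 14 of 32 members. ABCA2, ABCA5, ABCA7, ABCB6, ABCB9, ABCB10, ABCC3 and ABCG1 rose, and ABCC5, ABCE1, ABCF1 and ABCF2 were among those that fell. The 8 that rose were 25% of the members tested, where 20.4% of all genes rose, and the 6 that fell were 18.8%, where 20.8% of all genes fell. Both shares were close to the background, and the members' median log2 fold change was 0.08, against 0.0035 over all genes. With 6 libraries these medians were 0.15 and -0.01. Without DMSO 3, ABCG1 was the one called member with a change of 2-fold or more (3.12% of the members tested, where this held for 5.71% of all genes). With 6 libraries 6 members had fitted values of 2-fold or more, none of them called, namely ABCA6, ABCA9, ABCA12, ABCB6, ABCC6 and ABCG1 (19.4% of those tested, where 11.6% of all genes had such values). In CPM, all CAPE libraries lay above all DMSO libraries for 11 of the 31 members (35.5%), where this held for 21.4% of genes, and below them for 5 members (16.1%), where this held for 20.6% of genes. All further statements that a member rose or fell refer to the fit without DMSO 3, and none of these 14 calls passed with 6 libraries under edgeR.

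**Figure D2:**
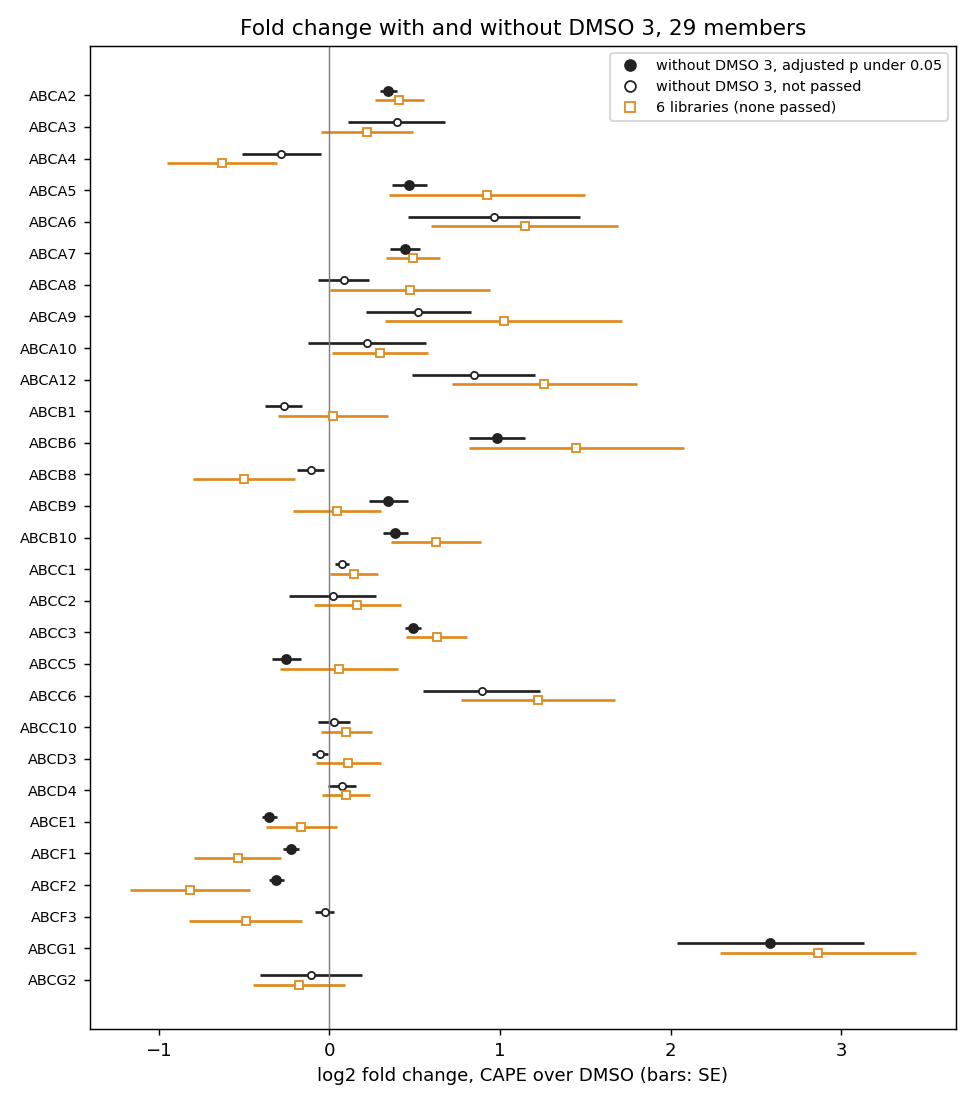
Log2 fold change of 29 of the 31 ABC members tested with 6 libraries, CAPE over DMSO, with 6 libraries and without DMSO 3, filled where the adjusted p was under 0.05 without DMSO 3 and with standard errors as bars. Most values lie within 1 log2 unit of 0, ABCG1 stands at 2.86 with 6 libraries and 2.58 without DMSO 3, and no member passed the test with 6 libraries.

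Among the pumps of drugs and conjugates, ABCC3 rose and ABCC5 fell, and ABCB1, ABCC1, ABCC2, ABCC10 and ABCG2 did not pass the test. ABCC3 (chr17:50634881-50692253, GRCh38.p14) had 312, 305 and 334 CPM in the CAPE libraries, against 229.7, 221 and 164 CPM in the DMSO libraries. Every CAPE library was above every DMSO library. Its log2 fold change was 0.63 with 6 libraries (adjusted p 0.180) and 0.49 without DMSO 3 (SE 0.05, adjusted p 1.115e-06).

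ABCC5 (chr3:183919934-184017884), which exports cyclic nucleotides and nucleotide analogues, had 48.6, 53.2 and 49.3 CPM with CAPE, against 67.0, 52.7 and 25.5 CPM with DMSO. The groups overlapped, with the 3 CAPE libraries close together and the DMSO libraries spread on both sides of them. Its log2 fold change was 0.06 with 6 libraries (adjusted p 0.924) and -0.25 without DMSO 3 (SE 0.08, adjusted p 0.0272), so its direction turned with that library. The call was lost when CAPE 1 or CAPE 3 was also left out (adjusted p 0.0878 and 0.0843). With a single DMSO library kept, the log2 fold change was -0.07 without DMSO 1 and -0.42 without DMSO 2.

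ABCC1, which exports glutathione conjugates and a range of anticancer drugs, had 264, 255 and 258 CPM with CAPE, against 246, 245 and 212 CPM with DMSO. The CAPE libraries were all higher, by a small amount. The log2 fold change was 0.15 with 6 libraries (adjusted p 0.539) and 0.08 without DMSO 3 (SE 0.04, adjusted p 0.150), and it was -0.26 with 6 libraries once a trend with transcript length was removed.

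ABCB1, the drug efflux pump P-glycoprotein, had 10.9, 10.9 and 12.6 CPM with CAPE, against 14.2, 13.3 and 6.29 CPM with DMSO. Its CAPE values lay between DMSO 3 and the other DMSO libraries. The log2 fold change was 0.02 with 6 libraries (adjusted p 0.970) and -0.27 without DMSO 3 (SE 0.11, adjusted p 0.0634), so neither fit called it. When CAPE 3 was also left out it was -0.34 and called (edgeR, adjusted p 0.0397). In an edgeR fit of libraries 1 and 2 of both groups, blocked by number, it was again -0.34 and called (adjusted p 0.0431). ABCG2 had 1.59, 1.54 and 1.12 CPM with CAPE, against 1.32, 1.72 and 1.78 CPM with DMSO. The groups overlapped, and its log2 fold change was -0.18 with 6 libraries (adjusted p 0.693) and -0.11 without DMSO 3 (SE 0.30, adjusted p 0.799). With a standard error of that size, only a change well above it could have passed the test at this depth.

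ABCC2, the apical exporter of conjugates, and ABCC10, which can move taxanes, had 1.75 to 1.94 and 16.6 to 18.1 CPM with CAPE, against 1.30 to 2.06 and 14.6 to 17.5 CPM with DMSO. Neither passed, at log2 fold changes of 0.02 and 0.03 without DMSO 3 (adjusted p 0.958 and 0.828) and 0.16 and 0.10 with 6 libraries (adjusted p 0.700 and 0.696). ABCC6, a liver and kidney protein needed for release of ATP, had 1.59, 1.44 and 1.53 CPM with CAPE, against 0.58, 1.04 and 0.274 CPM with DMSO. All 3 CAPE libraries were higher, but with an adjusted p of 0.0511 without DMSO 3 (log2 fold change 0.89, SE 0.34) it missed the threshold, and with 6 libraries the log2 fold change was 1.22 (adjusted p 0.273). Reads of ABCC6 can be shared with near-identical copies, and the copies ABCC6P1 and ABCC6P2 had at most 1 and 2 counts in any library. ABCC9, the regulatory subunit of a potassium channel, was tested only without DMSO 3 with 0.370 to 0.904 CPM in the CAPE libraries, against 0.274 to 0.632 CPM in the DMSO libraries (log2 fold change 0.32, adjusted p 0.657).

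Among the lipid transporters of the subfamilies A and G, ABCG1, ABCA2, ABCA5 and ABCA7 rose, and ABCG1 was the one member called with a change of 2-fold or more. ABCG1 (chr21:42199689-42297244), which moves cholesterol to high-density lipoprotein and is a target of the liver X receptors, had 21, 22 and 22 counts in the CAPE libraries, against 1, 6 and 1 counts in the DMSO libraries. In CPM this was 1.11, 1.17 and 1.12 with CAPE, against 0.0527, 0.313 and 0.0684 with DMSO. The groups did not overlap, and DMSO 3 was at the level of DMSO 1. The ratio of the CPM of summed counts (65 with CAPE and 8 with DMSO) was 7.48, with an exact 95% interval of 3.58 to 18.1 that covers counting error only.

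The log2 fold change of ABCG1 was 2.86 with 6 libraries (adjusted p 0.0805 in edgeR and 0.00508 in DESeq2) and 2.58 without DMSO 3 (SE 0.55, adjusted p 0.00159). With 1 further library left out it lay between 1.83 (without DMSO 1) and 4.26 (without DMSO 2), each of which keeps a single DMSO library. It stayed called in edgeR when CAPE 1, CAPE 2 or CAPE 3 was the further library (adjusted p 0.00405 to 0.00483). ABCA1, the other cholesterol exporter under the same receptors, had at most 8 counts in any library and was not tested. ABCG1 transcripts remained rare with CAPE, at 0.710, 1.07 and 0.910 TPM, against 0.0283, 0.178 and 0.0767 TPM with DMSO.

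The 3 members of subfamily A that rose did so by less. ABCA2 (chr9:137007234-137028922), a lipid transporter of endosomes and lysosomes, had 252, 250.1 and 242 CPM with CAPE, against 207, 183 and 171 CPM with DMSO. The groups did not overlap, and the log2 fold change was 0.41 with 6 libraries (adjusted p 0.257) and 0.35 without DMSO 3 (SE 0.05, adjusted p 7.5e-05). With 6 libraries it was 0.17 once a trend with transcript length was removed (adjusted p 0.516) and 0.91 on the log2(TPM + 1) scale (limma, adjusted p 0.355). ABCA7 (chr19:1040107-1065572), a phospholipid transporter whose gene is linked to Alzheimer's disease, had 47.8, 45.9 and 45.8 CPM with CAPE, against 38.5, 29.7 and 31.1 CPM with DMSO. It too was separated between the groups, with a log2 fold change of 0.49 with 6 libraries (adjusted p 0.223) and 0.44 without DMSO 3 (SE 0.09, adjusted p 0.00108). With DMSO 2 also left out, which keeps a single DMSO library, this was 0.27.

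ABCA5 (chr17:69244311-69327133), a lysosomal lipid transporter, had 16.6, 19.7 and 18.3 CPM with CAPE, against 13.2, 13.1 and 2.46 CPM with DMSO. DMSO 3 lay far under the other DMSO libraries, so that the log2 fold change was 0.92 with 6 libraries (adjusted p 0.379) and 0.47 without DMSO 3 (SE 0.10, adjusted p 0.0021). ABCA5 is the last of 5 neighbouring genes, ABCA8, ABCA9, ABCA6, ABCA10 and ABCA5, at chr17:68867289-69327133. In CPM, ABCA8 ranged over 6.24 to 7.52 with CAPE, against 1.85 to 7.38 with DMSO, and ABCA9 over 1.44 to 1.80 with CAPE, against 0.0684 to 1.31 with DMSO. ABCA6 ranged over 0.634 to 1.70 with CAPE, against 0.316 to 0.783 with DMSO, and ABCA10 over 0.972 to 1.33 with CAPE, against 0.821 to 1.11 with DMSO. The other 4 of this cluster had log2 fold changes without DMSO 3 of 0.08, 0.52, 0.96 and 0.22 in that order, and with 6 libraries of 0.47, 1.02, 1.14 and 0.30, and none of these 4 passed the test in either fit. The annotated spans of ABCA5 and ABCA10 share 538 bases and those of ABCA6 and ABCA9 share 276 bases, so reads there could be assigned to either gene.

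Among the remaining A members, ABCA12, a lipid transporter of the epidermis, had 1.02 to 1.59 CPM with CAPE, against 0.137 to 0.791 CPM with DMSO (log2 fold change 0.85 without DMSO 3, adjusted p 0.0744, and 1.26 with 6 libraries, adjusted p 0.322). ABCA3, which fills surfactant bodies in lung epithelium, had 1.43 to 1.90 CPM with CAPE, against 1.26 to 1.85 CPM with DMSO (log2 fold change 0.39 without DMSO 3, adjusted p 0.287, and 0.22 with 6 libraries, adjusted p 0.622). ABCA4, the retinal transporter of retinoid and lipid adducts, had 2.27, 2.23 and 1.79 CPM with CAPE, against 2.58, 2.51 and 4.72 CPM with DMSO. Its counts gave -0.28 without DMSO 3 and -0.63 with 6 libraries (adjusted p 0.349 in both). Its level per length was further apart, at 1.90, 1.81 and 0.731 TPM with CAPE, against 4.64, 6.68 and 3.01 TPM with DMSO. On the log2(TPM + 1) scale without DMSO 3 the difference was -1.44 (limma, adjusted p 0.0116), so ABCA4 was called in TPM and not in counts.

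Of the mitochondrial members of subfamily B, ABCB6 and ABCB10 rose and ABCB8 did not pass the test. ABCB6 (chr2:219209772-219218958), which transports porphyrins, had 18.1, 22.2 and 20.5 CPM with CAPE, against 12.9, 7.52 and 1.71 CPM with DMSO. The CAPE libraries were all higher, while the DMSO libraries spread widely. The log2 fold change was 1.45 with 6 libraries (adjusted p 0.325) and 0.98 without DMSO 3 (SE 0.17, adjusted p 2.62e-04), and with 1 further library left out it ran from 0.64 (without DMSO 2) to 1.42 (without DMSO 1).

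ABCB10 (chr1:229516582-229558707), an inner membrane protein needed for haem synthesis in red cell precursors, had 46.2, 49.7 and 47.5 CPM with CAPE, against 33.8, 39.2 and 19.9 CPM with DMSO. The groups did not overlap, and it rose by 0.39 (SE 0.07, adjusted p 7.72e-04) on the log2 scale without DMSO 3, against 0.63 with 6 libraries (adjusted p 0.316).

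ABCB8, a further mitochondrial member, had 23.8, 24.5 and 24.3 CPM with CAPE, against 27.5, 24.6 and 50.8 CPM with DMSO. The CAPE libraries lay below all DMSO libraries, the nearest by a narrow margin, and the log2 fold change of -0.11 without DMSO 3 did not pass (adjusted p 0.290), nor did that of -0.50 with 6 libraries (adjusted p 0.369). ABCB9 (chr12:122918610-122975114), a peptide transporter of lysosomes, had 10.4, 10.9 and 10.1 CPM with CAPE, against 8.12, 8.30 and 14.1 CPM with DMSO. DMSO 3 was the highest of all libraries, so the log2 fold change of 0.35 without DMSO 3 (SE 0.11, adjusted p 0.0247) was 0.04 with 6 libraries (adjusted p 0.922). The call was lost when CAPE 2 was also left out (adjusted p 0.0679). With a single DMSO library kept, the log2 fold change was 0.33 without DMSO 1 and 0.36 without DMSO 2. ABCB9 and the gene OGFOD2 overlap in the annotation.

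In subfamily D, ABCD3, which imports branched-chain acids and bile acid precursors into peroxisomes, had 105, 109 and 109 CPM with CAPE, against 112, 111 and 76.4 CPM with DMSO. ABCD4, which handles cobalamin in lysosomes, had 27.0, 31.4 and 30.4 CPM with CAPE, against 29.0, 27.1 and 26.8 CPM with DMSO. Both overlapped between the groups and did not pass the test, at log2 fold changes of -0.05 and 0.07 without DMSO 3 (adjusted p 0.387 and 0.505) and 0.11 and 0.10 with 6 libraries (adjusted p 0.727 and 0.680).

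Of the 4 tested members without membrane-spanning parts, ABCE1, ABCF1 and ABCF2 fell and ABCF3 did not pass the test. ABCE1 (chr4:145098311-145129524), which splits ribosomes after termination, had 157, 159 and 159 CPM with CAPE, against 198, 205 and 129 CPM with DMSO. The CAPE libraries agreed closely and lay between DMSO 3 and the other DMSO libraries. The log2 fold change was -0.16 with 6 libraries (adjusted p 0.640) and -0.35 without DMSO 3 (SE 0.04, adjusted p 1.17e-05), and -0.31 with 6 libraries once a trend with transcript length was removed (adjusted p 0.239). In TPM with 6 libraries its sign turned, to 0.23 on the log2(TPM + 1) scale, where the median of all genes was itself 0.31.

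ABCF1 (chr6:30571442-30591522), which binds the initiation factor eIF2 and ribosomes, had 130.4, 127 and 126 CPM with CAPE, against 151, 147 and 258 CPM with DMSO. Every CAPE library was below every DMSO library, and the log2 fold change was -0.54 with 6 libraries (adjusted p 0.342) and -0.23 without DMSO 3 (SE 0.04, adjusted p 9.99e-04). ABCF2 (chr7:151211484-151227205), a relative of ABCF1 without membrane-spanning domains, had 129, 127 and 131 CPM with CAPE, against 156, 163 and 362 CPM with DMSO. The groups did not overlap, and the log2 fold change was -0.82 with 6 libraries (adjusted p 0.324) and -0.31 without DMSO 3 (SE 0.05, adjusted p 6.7e-05). ABCF3, the third member, had 68.5, 67.2 and 72.1 CPM with CAPE, against 71.3, 69.5 and 151 CPM with DMSO. Its log2 fold change was -0.49 with 6 libraries (adjusted p 0.405) and -0.03 without DMSO 3 (adjusted p 0.729). ABCF2 shares its span with the read-through gene ABCF2-H2BK1, ABCE1 overlaps ANAPC10, ABCB1 overlaps RUNDC3B and ABCC10 overlaps DLK2.

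**Figure D3:**
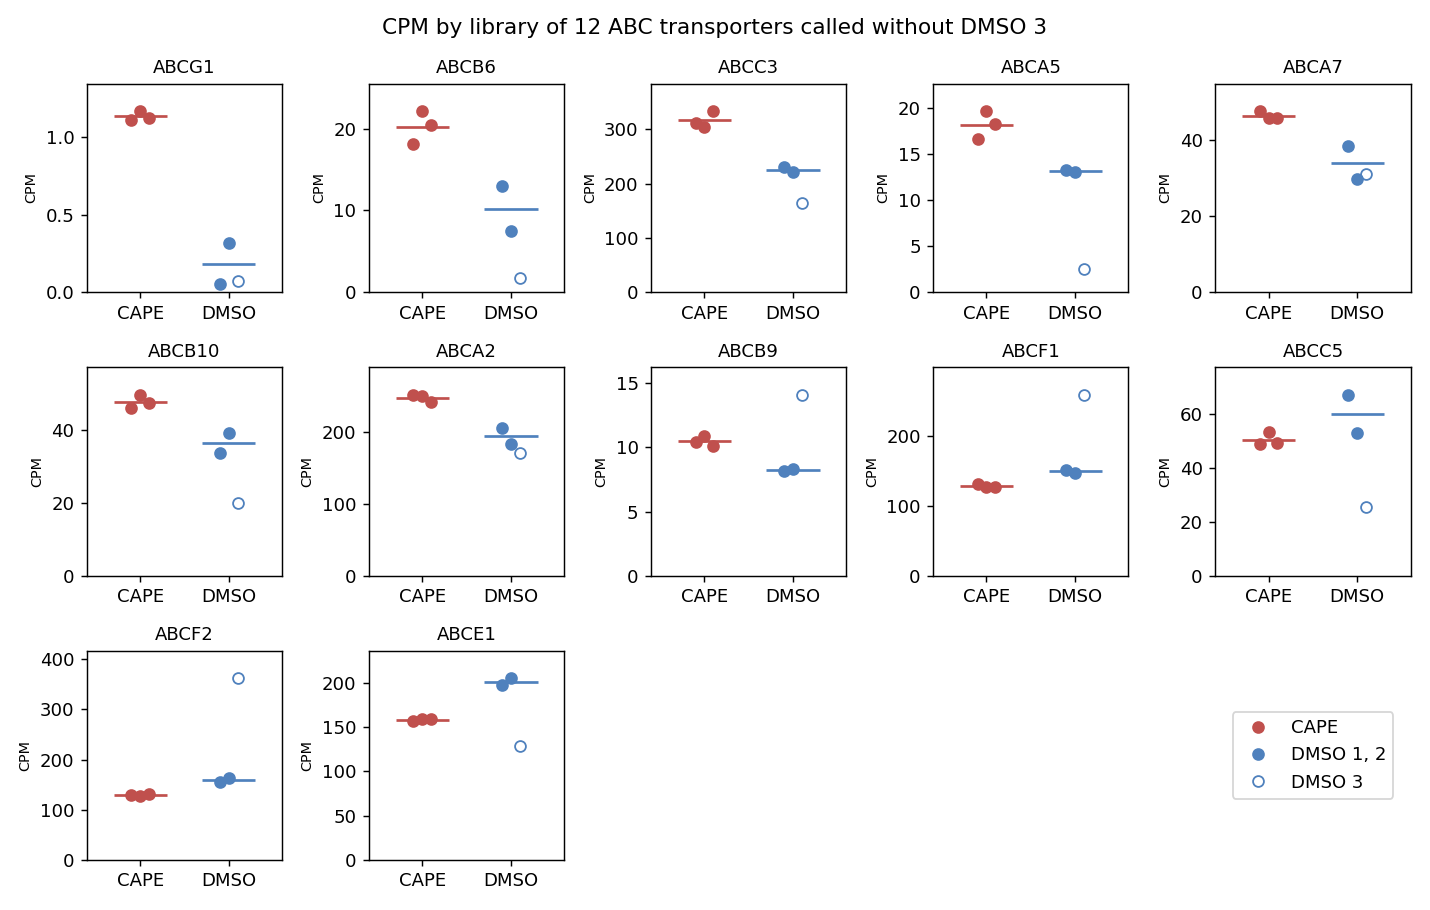
CPM of 12 of the 14 members called without DMSO 3, with 1 point per library, CAPE left of DMSO and DMSO 3 as an open circle. Lines give the mean of the CAPE libraries and the mean of DMSO 1 and DMSO 2. The 3 CAPE libraries lie close together for most members, and DMSO 3 lies outside DMSO 1 and DMSO 2 except for ABCA7 and ABCG1, for example at 362 CPM for ABCF2 and 2.46 CPM for ABCA5.

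Leaving out 1 CAPE library beside DMSO 3 separated the 14 calls. ABCA2, ABCA5, ABCA7, ABCB6, ABCB10, ABCC3, ABCE1, ABCF1, ABCF2 and ABCG1 stayed called each time, and ABCB9 and ABCC5 were among those lost in some of these fits. ABCB1 (-0.34) and ABCA12 (1.01, adjusted p 0.0442 in edgeR) gained a call without CAPE 3. Leaving out DMSO 1 or DMSO 2 instead keeps a single DMSO library, without any spread among controls, so only the sign is given. All 14 kept theirs. DESeq2 without DMSO 3 called 11 of the 14, and ABCB9 was among those it lost. On the log2(TPM + 1) scale without DMSO 3, limma called 8 of the 14, and ABCA5, ABCB9, ABCC5 and ABCF2 were among those it lost.

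The start regions of 4 called members are printed. They are the 2 largest rises and 2 largest falls without DMSO 3 among called members with a listed start region. All 4 calls stayed when 1 CAPE library was left out beside DMSO 3. A window is 300 bases on the gene's strand, 250 before and 50 after the annotated start (RefSeq, GRCh38.p14), and 34 of the 45 members had one. Capitals mark matches on either strand to the motifs TGACNNNGC (NRF2), GCGTG (the aryl hydrocarbon receptor), ACGTG (hypoxia-inducible factor), CACGTG (E-box) and GGGCGG (GC box). The letters ACGTG lie within CACGTG, so each E-box is also counted for that motif. ABCB6 lies at chr2:219218909-219219208 (minus strand), ABCA5 at chr17:69327084-69327383 (minus), ABCE1 at chr4:145098061-145098360 (plus) and ABCF2 at chr7:151227156-151227455 (minus).
ABCB6: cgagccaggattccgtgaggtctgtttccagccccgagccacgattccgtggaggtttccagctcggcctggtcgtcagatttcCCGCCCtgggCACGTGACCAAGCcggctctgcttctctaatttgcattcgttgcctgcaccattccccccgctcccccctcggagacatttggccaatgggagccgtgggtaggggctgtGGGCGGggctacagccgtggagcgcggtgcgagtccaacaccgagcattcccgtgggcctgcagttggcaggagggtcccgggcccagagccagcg
ABCA5: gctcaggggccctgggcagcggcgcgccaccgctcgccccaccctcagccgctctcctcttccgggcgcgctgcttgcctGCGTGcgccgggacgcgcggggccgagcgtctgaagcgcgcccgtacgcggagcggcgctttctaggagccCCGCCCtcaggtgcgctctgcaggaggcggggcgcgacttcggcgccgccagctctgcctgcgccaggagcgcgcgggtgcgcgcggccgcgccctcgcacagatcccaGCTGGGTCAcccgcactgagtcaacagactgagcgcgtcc
ABCE1: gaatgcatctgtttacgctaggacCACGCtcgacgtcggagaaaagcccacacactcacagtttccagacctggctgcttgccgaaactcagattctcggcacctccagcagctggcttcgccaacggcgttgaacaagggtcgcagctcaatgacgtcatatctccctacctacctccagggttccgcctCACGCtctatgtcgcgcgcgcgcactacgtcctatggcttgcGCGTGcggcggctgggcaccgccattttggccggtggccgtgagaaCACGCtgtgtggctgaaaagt
ABCF2: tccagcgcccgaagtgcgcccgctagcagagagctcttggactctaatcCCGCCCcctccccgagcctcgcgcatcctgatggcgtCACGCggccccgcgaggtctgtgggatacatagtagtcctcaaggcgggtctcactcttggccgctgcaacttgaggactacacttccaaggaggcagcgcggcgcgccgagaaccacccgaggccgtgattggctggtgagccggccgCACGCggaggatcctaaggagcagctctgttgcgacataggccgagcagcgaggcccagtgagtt

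The ABCB6 window held 1 NRF2 match that overlaps its E-box, and 2 GC boxes. The ABCA5 window held 1 NRF2 match, 1 GCGTG and 1 GC box. The ABCE1 window, of a member that fell, held 4 GCGTG matches and none of the other motifs, and that of ABCF2 held 2 GCGTG and 1 GC box. Over the 34 member windows, 8 held the NRF2 motif (23.5%, against 13.6% of 27305 promoters), 14 held GCGTG (41.2%, against 36.4%), 9 held ACGTG (26.5%, against 21.6%), 6 held the E-box (17.6%, against 7.41%) and 17 held a GC box (50%, against 44.5%). Member windows had a median GC content of 61.5%, against 58.3% of all windows. These matches describe letters, and no binding was measured.

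The other 13 members were too low to test in either fit. ABCC8, the sulphonylurea receptor of pancreatic beta cells, had 0 counts in all 6 libraries. With the floor of 3 counts this allows at most 0.153 to 0.205 CPM per library, if reads could be assigned to that entry. Whether they could was not tested, and the listed partner gene GSS also had 0 counts in every library. ABCB11, the bile salt export pump, ABCC12, ABCD2 and ABCG4 had at most 1 count in any library. ABCB4, which moves phosphatidylcholine into bile, had at most 3, ABCA13 and ABCG5 at most 5, ABCB5 at most 6, ABCA1 at most 8, ABCC11 and ABCC13 at most 10, and ABCC4, which exports cyclic nucleotides, at most 18. Pseudogene copies of ABCB10 and ABCF2 in the table had 0 counts in every library.

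Genes that work with the family were counted in the same fits, from lists of 184 genes. With 6 libraries 1 of the 159 tested was called, and without DMSO 3 38 of 160 rose (23.8%, where 20.4% of all genes rose) and 32 fell (20%, where 20.8% of all genes fell). Values and counts of partner genes are those of the fit without DMSO 3 unless 6 libraries are named, and those 20.4% and 20.8% are the background of each list's counts. The lists' median log2 fold changes without DMSO 3 lay between -0.13, for the mitochondrial partners, and 0.14, for the vault and other efflux proteins, against 0.0035 over all genes. The called gene was SLC31A1, the high-affinity copper importer that also takes up cisplatin, at 185, 186 and 172 CPM with CAPE, against 89.7, 94.1 and 85.7 CPM with DMSO. The groups did not overlap and its log2 fold change was 1.01 with 6 libraries (SE 0.13, adjusted p 0.0261). Among 19 solute carriers for drugs tested without DMSO 3, 6 rose (31.6%), among them SLC31A1 (0.97) and the organic anion carrier SLCO4A1 (0.97), and 3 fell (15.8%), among them SLC22A3 (-0.57) and the nucleoside carrier SLC29A2 (-0.48), all as log2 fold changes.

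Enzymes that make the conjugates exported by subfamily C counted 5 higher (27.8%) and 1 lower (5.56%) of 18, with GCLC, the rate-limiting enzyme of glutathione synthesis, at 0.97 and GSTM3 at 0.31, and MGST1 at -0.11. Regulators of transporter genes counted 8 higher (44.4%) and 4 lower (22.2%) of 18, with ETS1 (0.81) and ABL1 (0.54) up, and NFE2L2 (-0.39), which encodes NRF2, and HIF1A (-0.26) down. Partners of cholesterol efflux, the pathway of ABCG1, counted 2 higher (11.8%) and 4 lower (23.5%) of 17. LRP1 (0.85) and CAV1 (0.15) rose, and SREBF2 (-0.59) and RXRA (-0.39), the partner of the liver X receptors, fell. The liver X receptor genes NR1H2 and NR1H3, named for their role with ABCG1 after their values were seen, had log2 fold changes of -0.09 and -0.10 without DMSO 3 (adjusted p 0.323 and 0.359).

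Mitochondrial iron-sulphur and haem partners of the B members counted 4 higher (21.1%) and 6 lower (31.6%) of 19. HMOX1, which breaks down haem, rose by 1.04 and ALAS1, which starts haem synthesis, by 0.60, while GLRX5 (-0.38) and UROD (-0.25) fell. HMOX1 had 15.8, 18.2 and 17.2 CPM with CAPE, against 8.27, 8.25 and 21.1 CPM with DMSO, and with 6 libraries its log2 fold change was 0.45 (adjusted p 0.511). ALAS1 had 93.5, 94.4 and 90.7 CPM with CAPE, against 55.7, 66.2 and 142.5 CPM with DMSO, so that DMSO 3 lay above every CAPE library and the log2 fold change was 0.08 with 6 libraries (adjusted p 0.905). Ribosome partners of ABCE1 and the F members counted 3 higher (17.6%) and 7 lower (41.2%) of 17, with EIF1 (0.59) and EIF2S2 (0.38) up, and GSPT1 (-0.38), the release factor eRF3, and EIF3J (-0.37) down.

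Peptide loading partners counted 4 higher, with CALR (0.38) and PDIA3 (0.25), and 0 lower of 13. Peroxisomal partners counted 2 higher, PEX3 (0.85) and SLC27A2 (0.16), and 1 lower, ELOVL1 (-0.17), of 15. Vault and other efflux proteins counted 2 higher, with ATP7A (0.66) and ATP11B (0.35), and 3 lower, among them the major vault protein MVP (-0.40), of 7. Phospholipid flippases and scramblases counted 2 higher, ANO6 (0.39) and ATP11A (0.39), and 3 lower, among them ATP8B2 (-0.42), of 15. TAP1 and TAP2, which feed peptides to class I molecules, did not pass (0.15 and -0.06), CFTR was too low to test, and neither of the potassium channel partners of ABCC8 and ABCC9 was tested. With 6 libraries the log2 fold changes of GSTM3 (-0.35), HIF1A (0.04), CALR (-0.11) and EIF1 (-0.05) had the other sign. Those of NFE2L2 (-0.19), CAV1 (0.05), PDIA3 (0.05) and SLC27A2 (0.04) were nearer 0 with 6 libraries, and those of MGST1 (-0.39), NR1H2 (-0.80), NR1H3 (-0.62), GLRX5 (-0.93), UROD (-0.94), ELOVL1 (-0.83), MVP (-1.03), ATP7A (1.07), ATP11B (0.70), ATP11A (0.71) and ANO6 (0.66) were farther from it, and none of these passed the test with 6 libraries.

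The miRNA libraries were searched for 19 miRNAs known from earlier work to act on ABC transporter mRNAs. Mature sequences from RefSeq (GRCh38.p14) are shown for the 2 that passed the test and for 4 others described beside them, with bases 2 to 8, the seed that pairs with a target, in capitals.
miR-27a-3p: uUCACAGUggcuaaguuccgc
miR-27b-3p: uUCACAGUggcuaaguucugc
miR-128-3p: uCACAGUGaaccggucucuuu
miR-33a-5p: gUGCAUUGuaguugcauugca
miR-7-5p: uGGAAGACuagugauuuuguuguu
miR-26a-5p: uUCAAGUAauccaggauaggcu

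miR-27a-3p and miR-27b-3p share the seed UCACAGU, and that of miR-128-3p, CACAGUG, is the same run moved by 1 base. Of the 19, 12 were high enough to test, and 1 rose and 1 fell at an adjusted p under 0.05, where 11.8% of the 527 miRNAs tested were called. miR-7-5p, which acts on ABCC1 in small cell lung cancer lines in earlier work, had 10783, 9828 and 8997 CPM in the CAPE libraries, against 18727, 15695 and 16461 CPM in the DMSO libraries. Every CAPE library was lower, and it fell by 0.78 on the log2 scale (SE 0.12, adjusted p 0.00145). It stayed called without each miRNA library in turn, at log2 fold changes from -0.87 to -0.72. ABCC1 mRNA did not pass the test in either fit, as given above.

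miR-27a-3p had 13234, 14269 and 14983 CPM with CAPE, against 9802, 12155 and 9737 CPM with DMSO. The groups did not overlap, and it rose by 0.42 (SE 0.12, adjusted p 0.0430). That call was lost when CAPE 1, CAPE 2, CAPE 3 or DMSO 1 of the miRNA libraries was left out (adjusted p 0.0796 to 0.284), and without DMSO 3 the log2 fold change was 0.30 (adjusted p 0.0448). miR-27b-3p, with the same seed, had 35433, 36581 and 34616 CPM with CAPE, against 29657, 36477 and 25962 CPM with DMSO. Its groups overlapped, at a log2 fold change of 0.21 (SE 0.13, adjusted p 0.384).

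The other tested miRNAs did not pass. miR-26a-5p had 8012, 8555 and 7822 CPM with CAPE, against 6924, 6904 and 5717 CPM with DMSO, a log2 fold change of 0.32 (adjusted p 0.109). All CAPE libraries lay above all DMSO libraries. miR-33a-5p, which acts on ABCA1 and ABCG1 in other work, had 7.08 to 8.17 CPM with CAPE and 7.77 to 8.93 CPM with DMSO, a log2 fold change of -0.13 (SE 0.21, adjusted p 0.763). miR-106b-5p, miR-328-3p and miR-326 stood at 0.17, 0.16 and 0.16, and miR-128-3p, miR-10b-5p, miR-345-5p and miR-451a at -0.18, -0.06, -0.09 and -0.42, with adjusted p from 0.602 to 0.870. Without the miRNA library DMSO 3, miR-106b-5p (0.29, adjusted p 0.0356), miR-326 (0.69, adjusted p 0.0392) and miR-128-3p (-0.42, adjusted p 0.0060) passed the test. miR-33b-5p, miR-144-3p, miR-758-3p, miR-519c-3p, miR-520h, miR-145-5p and miR-223-3p were too low to test.

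**Figure D4:**
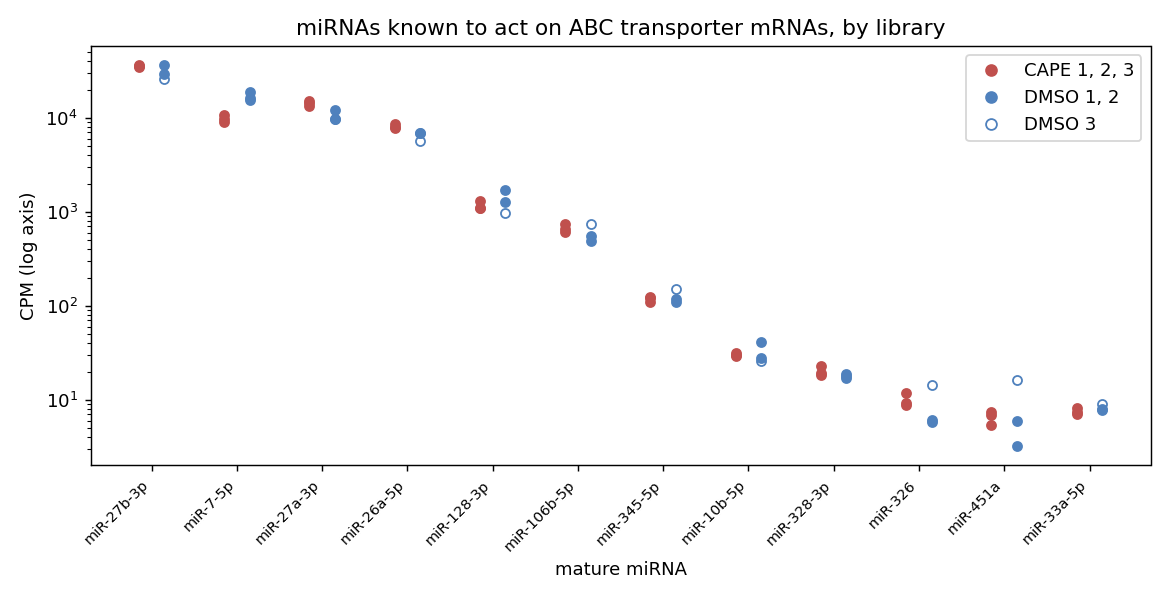
CPM of the 12 tested miRNAs of the list on a log axis, with 1 point per miRNA library, CAPE left of DMSO and DMSO 3 as an open circle. miR-7-5p lies lower in every CAPE library (8997 to 10783 CPM) than in every DMSO library (15695 to 18727 CPM), and miR-27a-3p lies higher.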

How the data were processed

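Total RNA of H446 cells was extracted with Trizol, per the labels' protocols, and sequenced as 150-base paired reads. The authors' deposited mRNA table holds estimated counts per gene symbol, rounded to whole numbers. Its TPM columns, also deposited by the authors, are scaled by transcript length and library total. kallisto 0.46.1 and GRCh38 are named in the submitters' processing notes, and how estimates were summed to genes is not given in the sources used here. The deposited miRNA counts are whole reads per mature name. Of 2888 entries 232 repeat a name, and the entry with the highest total was kept, leaving 2656 names.

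Counts were scaled by TMM, filtered with filterByExpr and tested two-sided with edgeR 4.0.16 (quasi-likelihood F test, Benjamini-Hochberg over all features tested, threshold 0.05) in R 4.3.3, mRNA and miRNA apart. Alternatives used DESeq2 1.42.0 and limma 3.58.1 on log2(TPM + 1). The design assumed raw counts, and the rounded estimates were tested in their place. The members and lists were chosen with earlier results of these data known. Members passing the filter are described one by one, those called by library, and those failing it by count range. Of each partner list, up to 2 called genes with the smallest p per direction are named. All 45 members matched RefSeq coordinates. A planned count of protein motifs was not run. Values of some genes, 2 members among them, are not reported here, while counts and tests over the family keep them. The fitting script was tested on simulated data.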

Additional observations from a re-analysis of the deposited data

How the results depend on the processing

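The number of ABC members called was 0 with 6 libraries and ranged from 0 to 14 when 1 mRNA library was left out, 14 being without DMSO 3 and 0 each time otherwise. It was 1 with DESeq2 on 6 libraries, 11 with DESeq2 without DMSO 3 and 9 on log2(TPM + 1) without DMSO 3. In an alternative added after seeing the data, which left out 1 further library beside DMSO 3, it was 12 without CAPE 1, 11 without CAPE 2, 14 without CAPE 3, 10 without DMSO 1 and 13 without DMSO 2. Over all genes, 265 calls became 0 to 5731 when 1 library was left out, with 1178 and 1099 genes at an unadjusted p under 0.05 in the fits with 0 calls (without CAPE 1 and CAPE 3). DESeq2 called 856 with 6 libraries and 4505 without DMSO 3, removal of the length trend 418, log2(TPM + 1) 135 and, without DMSO 3, 3046, and log2(TPM + 0.1) 88. Partner genes called were 70 without DMSO 3, against 1. The listed miRNAs called, 2 in the reported fit, ranged from 1 to 5 when 1 library was left out, 5 being without DMSO 3, and were 1 with DESeq2 size factors, 1 with the DESeq2 test and 1 without a filter. All miRNAs called ranged from 17 to 128, against 62. miR-27a-3p lost its call without CAPE 1, CAPE 2, CAPE 3 or DMSO 1, and with each of those 3 changes (adjusted p 0.0749 to 0.284). Without DMSO 3, miR-106b-5p, miR-326 and miR-128-3p gained one.

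Deviations of same-numbered libraries from their group means correlated at -0.194, 0.14 and -0.00853 for mRNA and 0.107, 0.0115 and 0.117 for miRNA. Between differently numbered libraries the values ran from -0.189 to 0.212 for mRNA and from -0.148 to 0.0851 for miRNA. Deviations from a mean of 3 are not independent, so these values do not decide whether the numbers pair libraries. The labels do not tell either. A replicate block left 0 calls over all genes, 0 of the members, 0 of the partner genes and 2 of the listed miRNAs. A block on numbers 1 and 2 called 13 members and 5007 genes.

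Values that changed sign are log2 fold changes, and the cause was not tested. With 1 library left out, ABCB1 ranged from -0.27 to 0.22, ABCB9 from -0.10 to 0.35, ABCC5 from -0.25 to 0.36, ABCD3 from -0.0534 to 0.19, miR-10b-5p from -0.26 to 0.14, miR-128-3p from -0.42 to 0.0431, miR-326 from -0.081 to 0.69 and miR-451a from -0.82 to 0.43. With the block on numbers 1 and 2, ABCB1 was -0.34 and was called (edgeR, adjusted p 0.0431). In the same fit ABCC10 was -0.0074, ABCC2 -0.0045, ABCC5 -0.23, ABCD3 -0.0617 and ABCG2 0.0437. ABCB1 was -0.0090 with DESeq2 size factors. With DESeq2 on 6 libraries ABCB1 was -0.0227 and ABCB9 -0.0061, and without DMSO 3 ABCB1 was -0.27, ABCC5 -0.26 and ABCD3 -0.0606. Without the length trend, ABCB1 was -0.0695, ABCB9 -0.0495, ABCC1 -0.26 and ABCC5 -0.12. On log2(TPM + 1) with 6 libraries, where the median of all genes was 0.31, ABCE1 was 0.23, ABCF3 0.14 and ABCG2 0.0444. Without DMSO 3 it gave ABCB1 -0.0626, ABCC5 -0.17, ABCD4 -0.0874 and ABCF3 0.10. On log2(TPM + 0.1), with an all-gene median of 0.40, ABCE1 was 0.24, ABCF3 0.14 and ABCG2 0.13. Of the values of the members reported, 391 kept direction and side of the threshold under these settings, 41 gained a call and 32 changed sign. Members near 1 CPM rest on about 20 counts a library, which limits the size of change that could be seen.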
